A study of Homo sapiens with 12 samples.

Results

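The 44 genes described here encode the transcription factor MYC, its dimerisation partner MAX, and proteins of ribosome biogenesis: the RNA polymerase I machinery, the proteins of small nucleolar ribonucleoproteins, the assembly factors of the small and the large ribosomal subunit, and other nucleolar proteins. They were taken by gene symbol, as the rows of the count table whose Ensembl identifiers map to a list of 44 symbols. All 44 were found among the 17786 genes of the table, and all 44 passed the filter on low counts that left 13598 genes for testing. The data are messenger RNA profiles of K562, an established human cell line derived from chronic myelogenous leukaemia, grown in RPMI-1640 medium with serum and glutamine. The 12 libraries form 3 groups of 4: cells given 2 mM alpha-ketobutyrate (AKB) for 24 h, cells given 2 mM pyruvate for 24 h, and untreated cells. AKB and pyruvate are related alpha-keto acids, AKB having the longer carbon chain, and lactate dehydrogenase can reduce both while oxidising NADH. The design sets each acid against untreated cells and, at matched dose and time, against the other. Nothing in the labels says whether the replicates of a group were separate cultures. The p-values below therefore rest on the spread between these 12 samples alone, and that spread may be technical.

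MYC binds DNA as a dimer with MAX, preferably at the E-box sequence CACGTG, and is known for raising the transcription of genes for ribosome production in growing and leukaemic cells. Ribosome production begins in the nucleolus, where RNA polymerase I transcribes a long precursor of the ribosomal RNAs. Small nucleolar ribonucleoproteins then modify that precursor, and a large set of assembly factors folds and cuts it while ribosomal proteins are added, along separate routes for the small and the large subunit.

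Total counts per library ran from 15353200 to 21301073. Pyruvate replicates 3 and 4 were the deepest libraries and stood apart from the other 10 along the GC content of the genes. For every 10 points more GC in a transcript, its log2 level there was 0.329 and 0.348 higher relative to the mean over the libraries, against slopes between −0.155 and 0.0171 in the rest. Counts of called genes are therefore also given with an offset that removes each library's GC trend, and with pyruvate replicates 3 and 4 left out. The erythroid markers of K562 were high in every group, with the fetal globin HBG2 at a mean of 5315 CPM in AKB, 4117 CPM in pyruvate and 5195 CPM in untreated libraries (CPM, the count scaled to a fixed library size). Among the markers of other cell types, CD3E, CD14 and ALB stayed under 1 CPM. COL1A1, COL1A2 and PECAM1 had group means of at most 8.11 CPM, and the epithelial antigen EPCAM averaged 94.1, 93.4 and 96.8 CPM in the same order. Since a CPM is a share of the RNA in a bulk sample, fewer cells that express a gene and less of its RNA per cell cannot be told apart.

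With AKB, messages of ribosome biogenesis sat a little below untreated cells almost throughout, and 2 of the 44 members passed the test downwards: RRP12 and UTP4, both factors of small subunit assembly. No member rose. In edgeR's quasi-likelihood test on all 12 libraries, with a Benjamini-Hochberg adjusted p below 0.05 as the threshold for every call, 0.603% of all 13598 genes were called lower and 1.37% higher in AKB than in untreated cells, against 4.55% of the members called lower. Estimates below 0 were found for 40 of the 44 members, against 48.6% of all genes tested, and the median log2 fold change was −0.12 for the members and 0.01 for all genes. At an unadjusted p below 0.05 the members numbered 13 lower and 0 higher. The members thus leaned downwards, by small amounts. The offset for GC content called 18 members lower and 0 higher, where 3.57% of all genes were lower and 5.1% higher. Leaving out pyruvate replicates 3 and 4 called 16 members lower and 0 higher. Of the 13941 genes then tested 4.31% were lower and 4.86% higher. Those libraries are not compared here and enter through the shared filter, scaling and estimate of spread. In each of these fits the called members were all lower. The authors' deposited DESeq2 table has further members at an adjusted p below 0.05 besides RRP12 and UTP4. They are UTP20 (0.00113), DDX21 (0.000138), GRWD1 (0.00194), PES1 (0.00652), BYSL (0.0159) and GAR1 (0.0472), all lower in AKB. The share of all genes called in that table is not given here. In 18 members every AKB library lay below every untreated library and in none above; among all genes tested this held for 8.41% and 8.74%. Single libraries moved the count of lower members: it was 0 without untreated replicate 1, 2 or 3 or AKB replicate 1, 3 or 4, 1 without untreated replicate 4 or AKB replicate 2, 4 without pyruvate replicate 1, 2 or 3, and 3 without pyruvate replicate 4. The count over all genes moved with it. From 82 genes lower on all 12 libraries it went to between 34 and 56 without an untreated or AKB library. Without a pyruvate library it was between 93 and 107.

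With pyruvate a single member, the large subunit factor NOP2, rose against untreated cells and none fell, where 1.02% of all genes rose and 0.927% fell. Estimates below 0 were found for 16 members, the median log2 fold change was 0.07 against −0.01 for all genes, and at an unadjusted p below 0.05 the members numbered 17 higher and 3 lower. The GC offset called 7 members higher (FBL, NOP14, NOP2, GNL3, NCL, NPM1 and LYAR) and 3 lower (BYSL, RRP12 and GRWD1), where 4.9% of all genes were higher and 4.59% lower. The offset thus called members in both directions. Without pyruvate replicates 3 and 4 no member was called in either direction by edgeR, where 0.151% of all genes were higher and 0.56% lower. Before adjustment 7 members higher and 4 lower had a p below 0.05 in that fit. On all 12 libraries DESeq2 called 12 members higher and 0 lower, where 1119 of 13598 genes were higher and 745 lower. Every pyruvate library lay above every untreated library in 6 members, POLR1A, FBL, NOP14, NOP2, NCL and LYAR, and below in none, against 4.89% and 6% of all genes. Leaving out pyruvate replicate 1 gave 15 members higher and 1 lower, where 1407 of 13806 genes were higher and 1224 lower. Leaving out pyruvate replicate 2 gave 15 higher and 5 lower, where 1931 of 13825 genes were higher and 1680 lower, so the calls over all genes grew as well. Leaving out pyruvate replicate 3 or 4, any AKB library, or untreated replicate 1, 2 or 3 gave none in either direction. The calls over all genes shrank in these fits as well. From 139 genes higher and 126 lower on all 12 libraries they went to between 1 and 47 higher and between 31 and 72 lower.

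The direct comparison of the acids gave the most calls: 12 members were lower in AKB than in pyruvate and none higher, which is 27.3% of the members, where 1.19% of all genes were lower and 1.94% higher. The 12 were POLR1A, TCOF1, GAR1, RRP9, NOP14, RRP12, PES1, NOP2, NOP16, PPAN, NCL and LYAR. Estimates below 0 were found for 41 members, with a median log2 fold change of −0.25 against 0.03 for all genes, and 30 members had an unadjusted p below 0.05, all of them lower. All 5 roles beyond MYC and MAX are among the called members. The GC offset called 26 members lower and 0 higher, where 6.12% of all genes were lower and 8.29% higher. Without pyruvate replicates 3 and 4, 10 members were lower and 0 higher (GAR1, UTP4, UTP20, WDR43, HEATR1, RRP9, NOP2, NCL, NPM1 and DDX21), where 1.84% of all genes were lower and 2.52% higher. GAR1, RRP9, NOP2 and NCL were thus called in all 3 fits. Every AKB library lay below every pyruvate library in 19 members and above in none, against 4.54% and 7.08% of all genes. This count leaned on single libraries: it was 23 without pyruvate replicate 1 or 2, 0 without pyruvate replicate 3 or without AKB replicate 1, 2 or 4, and 2 to 4 without any of the others. The count over all genes moved with it, to 947 of 13806 genes lower without pyruvate replicate 1 and 1189 of 13825 without pyruvate replicate 2, and to between 7 and 15 genes lower in the 4 fits that called no member. The comparisons share libraries, so their values for a member are not independent of each other.

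**Figure D1:**
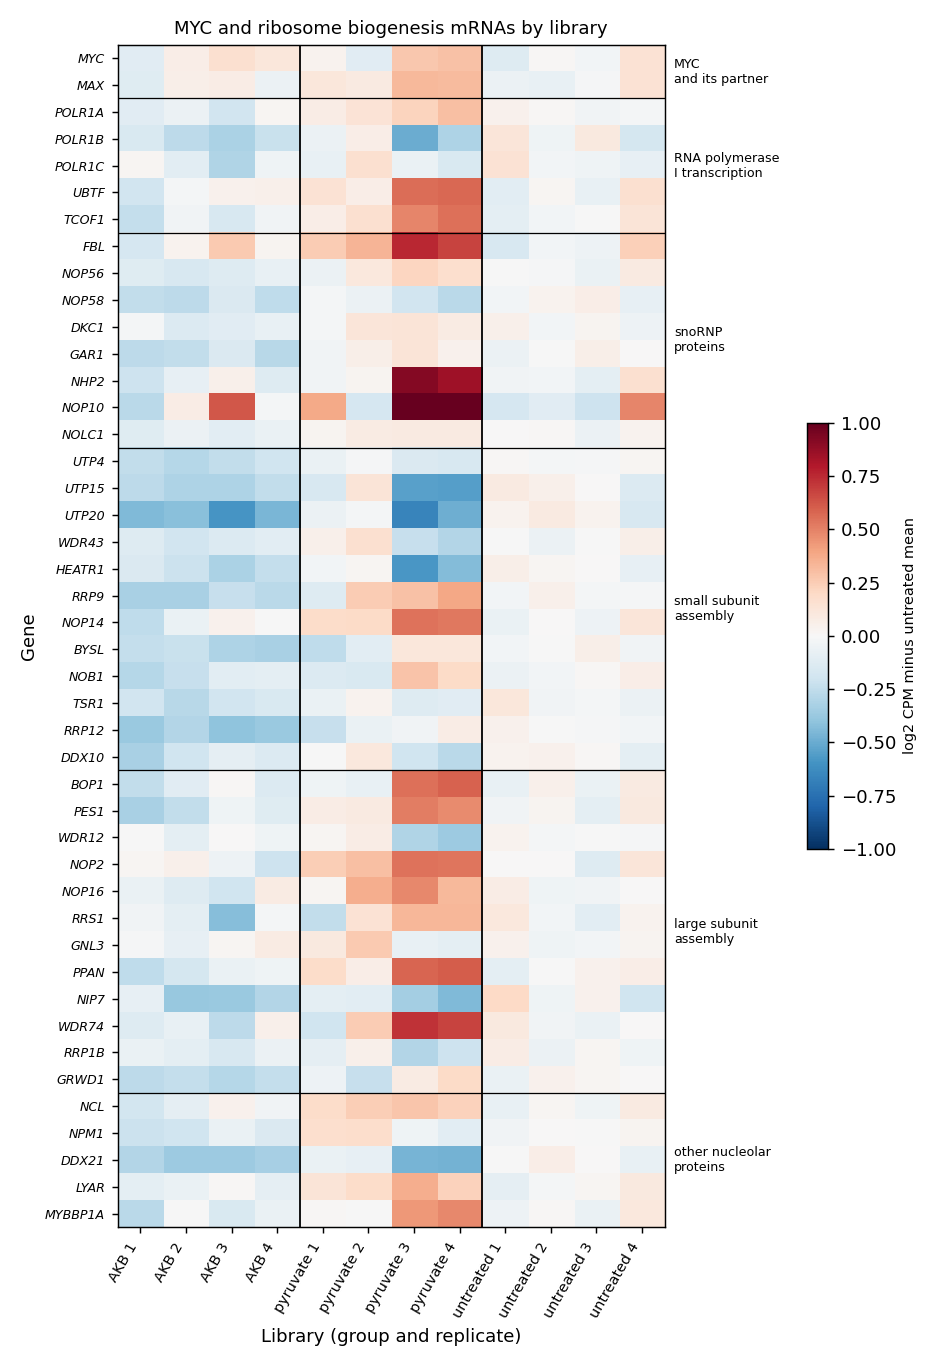
Each row is 1 of the 44 members and each column 1 library; colour gives the log2 CPM minus the mean of the untreated libraries, clipped at −1 and 1. The AKB columns are mostly blue, and pyruvate replicates 3 and 4 differ from pyruvate replicates 1 and 2 in both directions.

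Library by library, the members' median log2 difference from the untreated mean was −0.19, −0.13, −0.14 and −0.09 in the AKB libraries, −0.02, 0.08, 0.17 and 0.18 in the pyruvate libraries, and between −0.01 and 0.02 in the untreated libraries. All 4 AKB libraries lay below all of the others, and the 2 highest values were those of pyruvate replicates 3 and 4. After removal of the GC trend the pyruvate medians were −0.01, 0.06, 0.08 and 0.09, and those of AKB −0.20, −0.14, −0.15 and −0.12. The summed level of the 44 members was 8452 to 8872 CPM with AKB, 9866 to 10296 CPM with pyruvate and 9560 to 9775 CPM in untreated cells, without overlap between the 3 ranges. The most abundant members weigh most in this sum: NPM1, DDX21 and NCL averaged 2054, 1117 and 856 CPM in untreated cells.

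**Figure D2:**
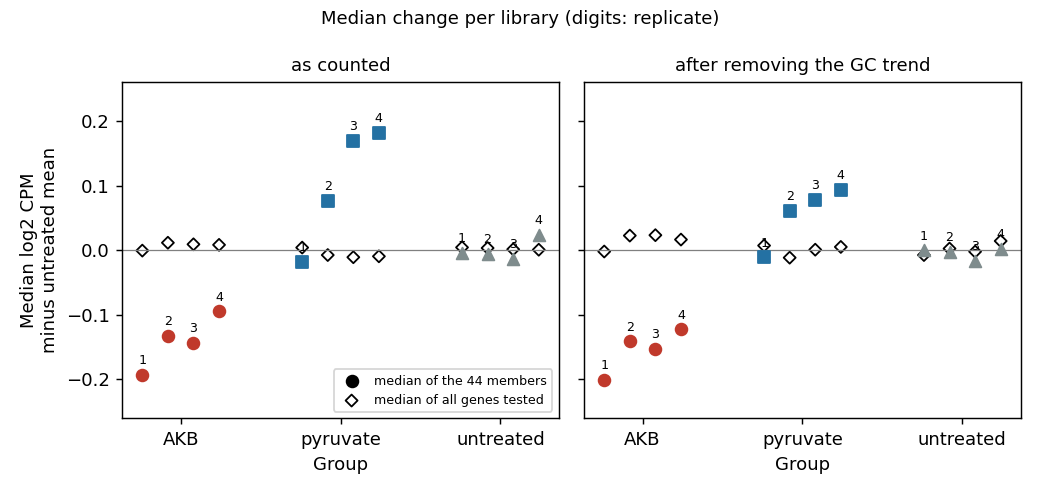
Filled symbols give, for each library (digits: replicate), the median over the 44 members of the log2 CPM minus the untreated mean; open diamonds give the same over all genes tested. The AKB libraries sit between −0.19 and −0.09 as counted, and the spread of the pyruvate libraries is narrower after removal of the GC trend.

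The promoters of 3 members that carry the calls are shown because each holds the E-box that MYC and MAX bind: UTP4 and RRP9 of small subunit assembly and NOP2 of large subunit assembly. The windows come from RefSeq on GRCh38.p14, run from 250 bases before to 50 bases after an annotated transcription start, and are written 5′ to 3′ on the strand of the gene with CACGTG in capitals. They lie at chr16:69132399-69132698 (plus strand) for UTP4, chr3:51941855-51942154 (minus strand) for RRP9 and chr12:6568242-6568541 (minus strand) for NOP2.
UTP4: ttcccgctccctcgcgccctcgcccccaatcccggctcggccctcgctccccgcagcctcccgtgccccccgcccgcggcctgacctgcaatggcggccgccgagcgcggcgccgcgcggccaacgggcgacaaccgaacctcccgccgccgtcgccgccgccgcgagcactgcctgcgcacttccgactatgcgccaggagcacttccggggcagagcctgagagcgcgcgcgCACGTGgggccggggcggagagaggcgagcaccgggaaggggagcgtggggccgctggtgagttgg
RRP9: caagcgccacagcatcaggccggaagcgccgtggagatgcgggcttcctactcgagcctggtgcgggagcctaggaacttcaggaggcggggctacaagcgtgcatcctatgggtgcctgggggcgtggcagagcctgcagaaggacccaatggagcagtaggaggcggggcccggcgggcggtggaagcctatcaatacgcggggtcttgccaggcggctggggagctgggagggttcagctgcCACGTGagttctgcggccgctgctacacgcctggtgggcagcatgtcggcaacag
NOP2: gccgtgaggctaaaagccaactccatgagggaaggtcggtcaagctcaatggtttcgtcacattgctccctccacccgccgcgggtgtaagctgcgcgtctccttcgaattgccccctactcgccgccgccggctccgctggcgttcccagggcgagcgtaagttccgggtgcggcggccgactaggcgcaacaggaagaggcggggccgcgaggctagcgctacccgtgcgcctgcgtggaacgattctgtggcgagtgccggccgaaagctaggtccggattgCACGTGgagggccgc
Counting the first transcribed base as position 1, with no position 0, the E-box begins at position −16 in UTP4, at −5 in RRP9 and at 36 in NOP2. Windows were at hand for 36 of the members, and 15 of these (41.7%) held CACGTG in at least 1 window: WDR43, RRP9, GNL3, NOP14, LYAR, GAR1, BYSL, DDX21, NOP2, UTP20, NOP10, UTP4, MYBBP1A, FBL and PES1. The motif reads the same on both strands, and no other was searched. Among the tested genes with a window 12.7% of 9942 held it, and among all genes with a window 8.77% of 27305. Per window the share was 32.6% of the 46 windows of members and 7.26% of all 35116. The motif was thus found in a larger share of the members than of other genes. For AKB against untreated cells the median log2 fold change was −0.14 in the 15 members with the motif and −0.12 in the 21 without. For pyruvate against untreated cells the medians were 0.22 and 0.06, and for AKB against pyruvate −0.29 and −0.23. A match is a description of the letters in the window and not evidence of binding.

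MYC itself did not pass the test in any comparison. Its level was 220.4, 249, 265 and 257 CPM in the AKB libraries, 244, 219, 286 and 291 CPM in the pyruvate libraries, and 217, 240.0, 233 and 263 CPM in the untreated libraries. The 3 groups overlap, and pyruvate replicates 3 and 4 are the highest of the 12. The log2 fold change was 0.06 for AKB against untreated cells (95% interval −0.15 to 0.27, adjusted p = 0.871), 0.13 for pyruvate against untreated cells (−0.08 to 0.34, adjusted p = 0.378) and −0.07 for AKB against pyruvate (−0.28 to 0.14, adjusted p = 0.674). Without pyruvate replicates 3 and 4 the MYC estimates turned to −0.04 for pyruvate against untreated cells and 0.10 for AKB against pyruvate. MAX, with which MYC must pair to bind DNA, had 44.04, 50.1, 50.5 and 46.2 CPM with AKB, 52.1, 51.2, 60.2 and 59.96 CPM with pyruvate, and 46.1, 45.7, 47.6 and 53.0 CPM in untreated libraries. Every AKB value lay below every pyruvate value, while AKB and untreated values overlapped. The log2 fold change of MAX was −0.23 for AKB against pyruvate (SE 0.08, adjusted p = 0.119), 0.22 for pyruvate against untreated cells (SE 0.08, adjusted p = 0.119) and −0.01 for AKB against untreated cells (95% interval −0.19 to 0.16).

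**Figure D3:**
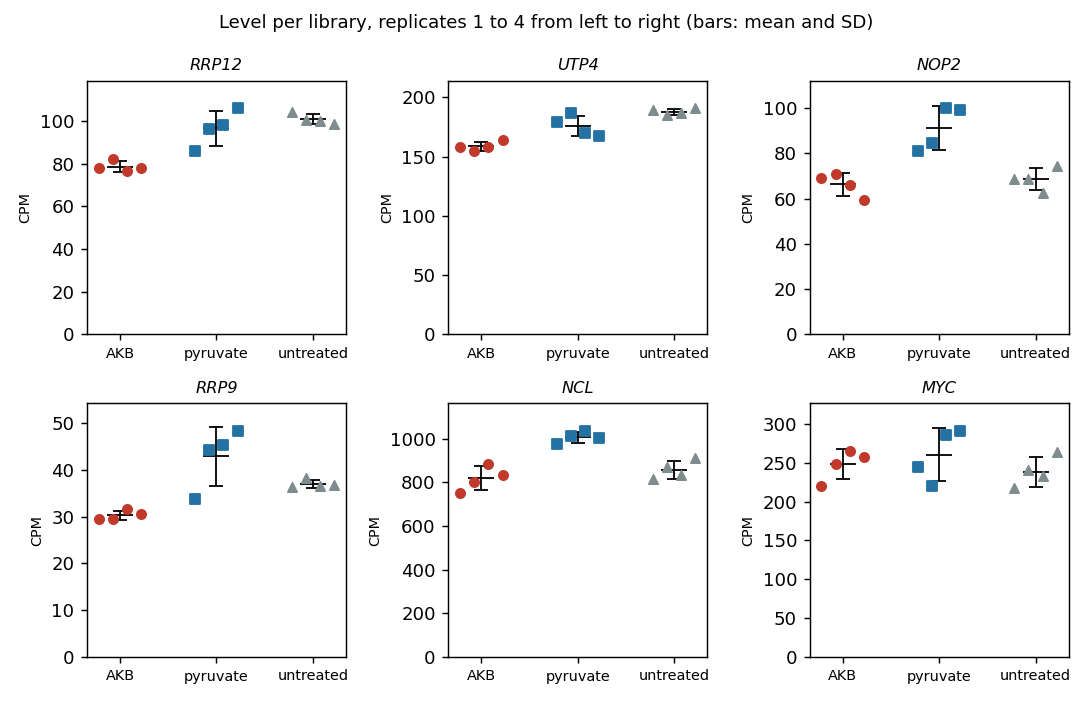
CPM in every library for 6 members, with AKB, pyruvate and untreated from left to right; short horizontal bars are group means and error bars the SD over 4 libraries. RRP12 and UTP4 lie lower in all 4 AKB libraries than in any untreated one, NOP2 and NCL higher in all 4 pyruvate libraries, and the MYC groups overlap.

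Of the 5 members that serve RNA polymerase I transcription, POLR1A and TCOF1 were lower in AKB than in pyruvate, and none passed against untreated cells with either acid. POLR1A, the largest subunit of the polymerase, had 166, 173, 157 and 182 CPM with AKB, 189, 197, 209 and 221 CPM with pyruvate, and 185, 181, 175 and 177 CPM in untreated cells. All 4 pyruvate libraries exceeded all of the others, and the AKB and untreated ranges overlap. The difference between the acids was 1.205-fold (log2 −0.27, SE 0.06, adjusted p = 0.0475, and 0.0816 without pyruvate replicates 3 and 4). TCOF1 encodes treacle, which helps transcribe the ribosomal genes, and stood at 149, 171, 158 and 171 CPM with AKB, at 184, 196, 246 and 257 CPM with pyruvate, and at 164, 173, 176 and 192 CPM in untreated cells. Here the pyruvate values split, replicates 3 and 4 being well above replicates 1 and 2, yet all 4 lay above all 4 AKB values. TCOF1 was 1.36-fold lower in AKB than in pyruvate (log2 −0.44, SE 0.11, adjusted p = 0.0461, and 0.102 without pyruvate replicates 3 and 4). UBTF, the factor that binds the ribosomal gene promoter, followed the same split with 126, 143, 149 and 149 CPM in AKB and 159.9, 151, 214 and 215 CPM in pyruvate libraries, and did not pass (log2 −0.38, adjusted p = 0.0836). Over the 5 members the log2 estimates ran from −0.24 to −0.03 for AKB against untreated cells, from −0.19 to 0.35 for pyruvate against untreated cells, and from −0.44 to −0.05 for AKB against pyruvate.

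Among the 8 proteins of small nucleolar ribonucleoproteins, GAR1 was lower in AKB than in pyruvate, and again no member passed against untreated cells. GAR1 belongs to the particles that convert uridine to pseudouridine in the precursor RNA. It measured 79.3, 80.3, 86.0 and 78.6 CPM with AKB, 93.0, 99.3, 104 and 97.8 CPM with pyruvate, and 91.5, 94.9, 99.2 and 95.2 CPM in untreated cells. All AKB values lay below all of the others, and the pyruvate and untreated values interleave. The difference from pyruvate was 1.22-fold (log2 −0.28, SE 0.06, adjusted p = 0.0289), and GAR1 stayed called with the GC offset (adjusted p = 0.00863) and without pyruvate replicates 3 and 4 (adjusted p = 0.0299). Against untreated cells it was log2 −0.23 (SE 0.06, adjusted p = 0.0672), and it was called without pyruvate replicates 3 and 4 (adjusted p = 0.00948). FBL, fibrillarin, the methyltransferase of the particles that methylate ribosomal RNA, had 159, 184, 215 and 183 CPM in AKB, 214, 227, 302 and 286 CPM in pyruvate and 161, 176, 173 and 211 CPM in untreated libraries. The pyruvate values lie above the untreated ones and meet the highest AKB value. FBL against untreated cells gave log2 0.51 with pyruvate (SE 0.13, adjusted p = 0.0585) and 0.04 with AKB (95% interval −0.24 to 0.32). With the GC offset the pyruvate value of FBL was log2 0.32 (adjusted p = 0.0236). NOP10, a small core protein of the pseudouridylation particles, varied most of all members within every group, with 23.9, 30.3, 44.5 and 28.4 CPM in AKB, 37.6, 25.6, 74.8 and 69.3 CPM in pyruvate and 25.6, 26.6, 24.9 and 40.6 CPM in untreated libraries. Pyruvate replicates 3 and 4 are the highest, and all 3 groups overlap. NOP10 gave the highest estimate of the list in both comparisons with untreated cells and passed in neither, at log2 0.11 with AKB (SE 0.31, adjusted p = 0.929) and log2 0.82 with pyruvate (SE 0.31, adjusted p = 0.123). NHP2, its partner in the same particles, measured 67.9 and 70.7 CPM in pyruvate replicates 1 and 2 but 131 and 125 CPM in replicates 3 and 4, and did not pass. All 8 estimates lay below 0 for AKB against pyruvate, from −0.71 to −0.10, and 6 of 8 for AKB against untreated cells.

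Small subunit assembly held both members that fell with AKB against untreated cells, and all 12 of its members had estimates below 0 in that comparison, with a median of −0.23. RRP12, known from yeast for the maturation and export of ribosomal subunits, had 77.8, 82.4, 76.4 and 78.1 CPM with AKB, 85.9, 96.1, 98.3 and 106 CPM with pyruvate, and 104, 101, 99.8 and 98.7 CPM in untreated cells. The AKB values cluster below all of the others, and pyruvate replicates 1, 2 and 3 lie between the AKB and the untreated range. RRP12 averaged 78.7 ± 2.58 CPM with AKB and 101 ± 2.33 CPM in untreated cells (SD, n = 4 each), a 1.28-fold fall (log2 −0.36, SE 0.07, adjusted p = 0.0175 in edgeR's quasi-likelihood test). Against pyruvate the fall of RRP12 was 1.23-fold (log2 −0.30, SE 0.07, adjusted p = 0.0399), which was not called with the GC offset (adjusted p = 0.119) or without pyruvate replicates 3 and 4 (adjusted p = 0.0534). The authors' deposited table gives RRP12 a log2 fold change of 0.26 for untreated over AKB (adjusted p = 0.0236), which is the opposite order of groups.

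UTP4, a protein of the small subunit processome that joins the precursor early and is tied to its transcription, measured 158, 154, 158 and 164 CPM with AKB, 179, 186, 169.8 and 168 CPM with pyruvate, and 189, 185, 186 and 191 CPM in untreated libraries. The AKB values are the lowest 4 of the 12, and the untreated group had its smallest spread of any member here, with a coefficient of variation of 1.41%. UTP4 averaged 159 ± 3.82 CPM with AKB and 188 ± 2.65 CPM in untreated cells (SD, n = 4 each), a 1.18-fold fall (log2 −0.24, SE 0.05, adjusted p = 0.0349). The AKB and untreated ranges are thus far apart beside their spread. Across leaving out each library in turn the adjusted p of UTP4 ran from 0.0196 to 0.132, and for RRP12 it ran from 0.008 to 0.0823. The authors' deposited table gives UTP4 a log2 fold change of 0.23 for untreated over AKB (adjusted p = 4.68e-06). Against pyruvate UTP4 was at log2 −0.15 (adjusted p = 0.118), and at −0.21 and called without pyruvate replicates 3 and 4. GENCODE 29 places UTP4 at chr16:69131291-69231130 on the plus strand of GRCh38, overlapping SNTB2 on the same strand and CHTF8 on the opposite one. The promoter window shown above, with its E-box, is placed by the RefSeq start and lies inside that span. The same annotation places RRP12 at chr10:97356358-97426076 on the minus strand.

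UTP20, a very large scaffold of the processome, had the lowest estimate of all 44 members with AKB against untreated cells, log2 −0.48 (SE 0.13, adjusted p = 0.0917). Its levels were 123, 125, 111 and 122 CPM with AKB, 161, 164, 106 and 119 CPM with pyruvate, and 171, 178, 171 and 149 CPM in untreated cells. AKB and untreated values do not overlap, and pyruvate replicates 3 and 4 sit with the AKB libraries while replicates 1 and 2 sit near the untreated ones. Without pyruvate replicates 3 and 4 UTP20 was called lower in AKB than in either other group. HEATR1, which works beside UTP4 in the same early complex, showed the same division: 340.3, 324, 302 and 319 CPM with AKB, 369, 382, 251 and 278 CPM with pyruvate, and 391, 380.1, 378 and 356 CPM in untreated cells. For AKB against pyruvate HEATR1 was at log2 0.01 over all libraries (95% interval −0.24 to 0.26) and at log2 −0.22 (adjusted p = 0.0405) without pyruvate replicates 3 and 4.

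RRP9, a protein of the U3 particle that guides the first cuts of the precursor, had 29.5, 29.5, 31.6 and 30.6 CPM with AKB, 33.8, 44.2, 45.3 and 48.4 CPM with pyruvate, and 36.3, 38.3, 36.5 and 36.7 CPM in untreated cells. The AKB values are the lowest 4, and pyruvate replicate 1 lies below the untreated range while the other 3 lie above it. RRP9 was 1.42-fold lower in AKB than in pyruvate (log2 −0.50, SE 0.10, adjusted p = 0.0208), with adjusted p = 0.0307 after the GC offset and 0.0488 without pyruvate replicates 3 and 4. Against untreated cells it was at log2 −0.29 with AKB (SE 0.10, adjusted p = 0.193) and log2 0.22 with pyruvate (SE 0.09, adjusted p = 0.158). NOP14, another processome protein, measured 97.2, 111, 119.6 and 116 CPM with AKB, 131, 132, 169 and 167 CPM with pyruvate, and 110.4, 116, 112 and 126 CPM in untreated cells. Its pyruvate values exceed all others, with replicates 3 and 4 on top, and its AKB and untreated values overlap. NOP14 was 1.35-fold lower in AKB than in pyruvate (log2 −0.44, SE 0.10, adjusted p = 0.0413, and 0.0935 without pyruvate replicates 3 and 4). The remaining members of this group, UTP15, WDR43, BYSL, NOB1, TSR1 and DDX10, passed in no comparison over all 12 libraries. Of these, UTP15, WDR43, BYSL, NOB1 and TSR1 were called lower with AKB than in untreated cells without pyruvate replicates 3 and 4, and DDX10 was not.

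In large subunit assembly 4 of the 12 members were lower in AKB than in pyruvate, NOP2, PES1, PPAN and NOP16, and NOP2 was also the 1 member that rose with pyruvate. NOP2 methylates a cytosine of the large ribosomal RNA. It had 69.2, 70.8, 66.0 and 59.2 CPM with AKB, 81.2, 84.5, 99.96 and 99.2 CPM with pyruvate, and 68.8, 68.9, 62.5 and 74.4 CPM in untreated cells. All 4 pyruvate values lie above all of the others, and AKB and untreated values overlap. NOP2 averaged 91.2 ± 9.74 CPM with pyruvate and 68.6 ± 4.86 CPM in untreated cells (SD, n = 4 each), a 1.33-fold rise (log2 0.41, SE 0.09, adjusted p = 0.0406). That call held with the GC offset (log2 0.26, adjusted p = 0.0173) and not without pyruvate replicates 3 and 4 (log2 0.27, adjusted p = 0.148). The estimate kept its direction in each of these fits. Against pyruvate AKB gave a 1.38-fold lower NOP2 (log2 −0.46, SE 0.09, adjusted p = 0.0224), called also with the GC offset and without those libraries (adjusted p = 0.00265 and 0.0467). The authors' deposited table lists NOP2 at log2 −0.28 for untreated over pyruvate (adjusted p = 0.0333) and at log2 −0.33 for AKB over pyruvate (adjusted p = 0.0119). For other members the authors' deposited tables differ from the estimates here: NCL has a log2 fold change of −0.02 for untreated over pyruvate in the authors' deposited table (adjusted p = 0.893), and UBTF −0.01 for AKB over pyruvate (adjusted p = 0.974). For AKB against untreated cells NOP2 was at log2 −0.05 (95% interval −0.24 to 0.14). GENCODE 29 places NOP2 at chr12:6556863-6568691 on the minus strand of GRCh38, overlapping the protein-coding gene AC006064.6 on the same strand. Reads of NOP2 may thus be divided between them.

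PES1, which forms a complex with BOP1 and WDR12 needed to process the large subunit RNA, measured 85.5, 90.4, 104 and 98.3 CPM with AKB, 113, 114, 153 and 149 CPM with pyruvate, and 105, 109, 100.3 and 115 CPM in untreated cells. It was 1.40-fold lower in AKB than in pyruvate (log2 −0.49, SE 0.11, adjusted p = 0.0386, and 0.0735 without pyruvate replicates 3 and 4). The pyruvate values of PES1 split, replicates 3 and 4 being the higher. Its partner WDR12 had 133, 125, 134 and 129 CPM with AKB, 135, 140.3, 108 and 104 CPM with pyruvate, and 137, 132, 133 and 132 CPM in untreated cells. Here pyruvate replicates 3 and 4 are the lowest of the 12. WDR12 passed in no comparison and had the highest estimate of the list for AKB against pyruvate (log2 0.10, 95% interval −0.10 to 0.29), which was −0.08 without pyruvate replicates 3 and 4. PPAN, a large subunit assembly factor, had 57.4, 60.6, 65.6 and 66.6 CPM with AKB, 77.8, 71.6, 102 and 104 CPM with pyruvate, and 63.9, 68.2, 70.5 and 71.8 CPM in untreated cells. The AKB values lie below all pyruvate values and overlap the untreated ones. PPAN was 1.42-fold lower in AKB than in pyruvate (log2 −0.51, SE 0.11, adjusted p = 0.0404, and 0.0679 without pyruvate replicates 3 and 4). The annotation places PPAN inside a readthrough gene with P2RY11 on the same strand, so its reads may be divided between them. Other protein-coding genes on the same strand overlap RRS1 (AC009879.2), WDR74 (TEX54) and GRWD1 (KCNJ14). Protein-coding genes on the opposite strand overlap MAX, POLR1C, NHP2, UTP4, UTP15, HEATR1, TSR1, BOP1, PES1, WDR12, NOP16, GNL3, NIP7 and MYBBP1A, and without a stated strand setting their reads may not be told apart from those of these members.

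NOP16, known from yeast as a nucleolar factor of the large subunit, had 64.6, 61.6, 58.9 and 71.6 CPM with AKB, 68.5, 87.0, 94.0 and 84.7 CPM with pyruvate, and 70.9, 65.5, 65.9 and 67.7 CPM in untreated cells. Pyruvate replicate 1 lies within the AKB range, so the groups overlap. NOP16 was 1.30-fold lower in AKB than in pyruvate (log2 −0.38, SE 0.09, adjusted p = 0.049, and 0.124 without pyruvate replicates 3 and 4). NIP7, which takes part in processing of the precursor RNA, had 87.8, 71.3, 71.7 and 75.9 CPM with AKB, 86.6, 86.2, 73.3 and 68.2 CPM with pyruvate, and 106, 90.3, 95.9 and 80.7 CPM in untreated cells. Its groups overlap, and its estimate against untreated cells was log2 −0.28 with AKB (adjusted p = 0.261) and log2 −0.25 with pyruvate (adjusted p = 0.153). RRP1B, a nucleolar protein related to a yeast processing factor, measured 213, 209, 200.1 and 215 CPM with AKB, 209.9, 231, 182 and 194 CPM with pyruvate, and 236, 215, 227 and 218 CPM in untreated cells. The AKB values of RRP1B lie just below the untreated ones and among the pyruvate ones, and no comparison passed. The other members, BOP1, WDR12, RRS1, GNL3, WDR74 and GRWD1, were not called over all 12 libraries without an offset. With the GC offset BOP1 and GRWD1, like NIP7, were called lower with AKB than in untreated cells. The offset also called BOP1 and WDR74 lower in AKB than in pyruvate. With pyruvate against untreated cells it called GRWD1 lower and GNL3 higher. Across the 12 members of large subunit assembly the log2 estimates ran from −0.28 to 0.00 for AKB against untreated cells, from −0.25 to 0.41 for pyruvate against untreated cells and from −0.51 to 0.10 for AKB against pyruvate.

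Of the 5 other nucleolar proteins, NCL and LYAR were lower in AKB than in pyruvate. NCL is nucleolin, an abundant RNA-binding protein of the nucleolus, and had 752, 801, 883 and 833 CPM with AKB, 973, 1012, 1037 and 1002 CPM with pyruvate, and 813, 868, 832 and 910.3 CPM in untreated cells. The pyruvate values lie together above all of the others, with no split between replicates, and AKB and untreated values overlap. NCL was 1.23-fold lower in AKB than in pyruvate (log2 −0.30, SE 0.06, adjusted p = 0.0208), with adjusted p = 0.0109 after the GC offset and 0.0337 without pyruvate replicates 3 and 4. Against untreated cells NCL was at log2 0.23 with pyruvate (SE 0.06, adjusted p = 0.0553) and at log2 −0.07 with AKB (adjusted p = 0.693). LYAR, a zinc finger protein of precursor processing, measured 81.4, 82.9, 87.7 and 81.8 CPM with AKB, 95.2, 99.0, 112 and 102 CPM with pyruvate, and 81.5, 85.7, 87.9 and 92.8 CPM in untreated cells. It was 1.22-fold lower in AKB than in pyruvate (log2 −0.29, SE 0.07, adjusted p = 0.0407, and 0.0536 without pyruvate replicates 3 and 4).

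DDX21, an RNA helicase that acts in both polymerase I transcription and processing, had 911, 869, 868 and 887 CPM with AKB, 1064, 1056, 811 and 806 CPM with pyruvate, and 1116, 1167, 1122 and 1063 CPM in untreated cells. The AKB values lie below all untreated values, and the pyruvate values fall on either side of them, replicates 3 and 4 being the lowest of the 12. DDX21 was at log2 −0.34 with AKB (SE 0.09, adjusted p = 0.0854) and log2 −0.26 with pyruvate (SE 0.09, adjusted p = 0.102) against untreated cells. Without pyruvate replicates 3 and 4 it was called lower in AKB than in untreated and in pyruvate cells, and its pyruvate value was log2 −0.07 (adjusted p = 0.467). NPM1, nucleophosmin, a nucleolar chaperone, had 1769.6 to 1960.3 CPM with AKB, 1908 to 2320.3 CPM with pyruvate and 2006 to 2096 CPM in untreated cells, and was called lower in AKB than in either other group without pyruvate replicates 3 and 4 (adjusted p = 0.0221 against untreated cells and 0.00531 against pyruvate). The annotation names 45 pseudogenes of NPM1, so the division of its reads is uncertain. MYBBP1A, a nucleolar protein that binds MYB, passed in no comparison over all 12 libraries without an offset. With the GC offset it was called lower in AKB than in untreated and in pyruvate cells.

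**Figure D4:**
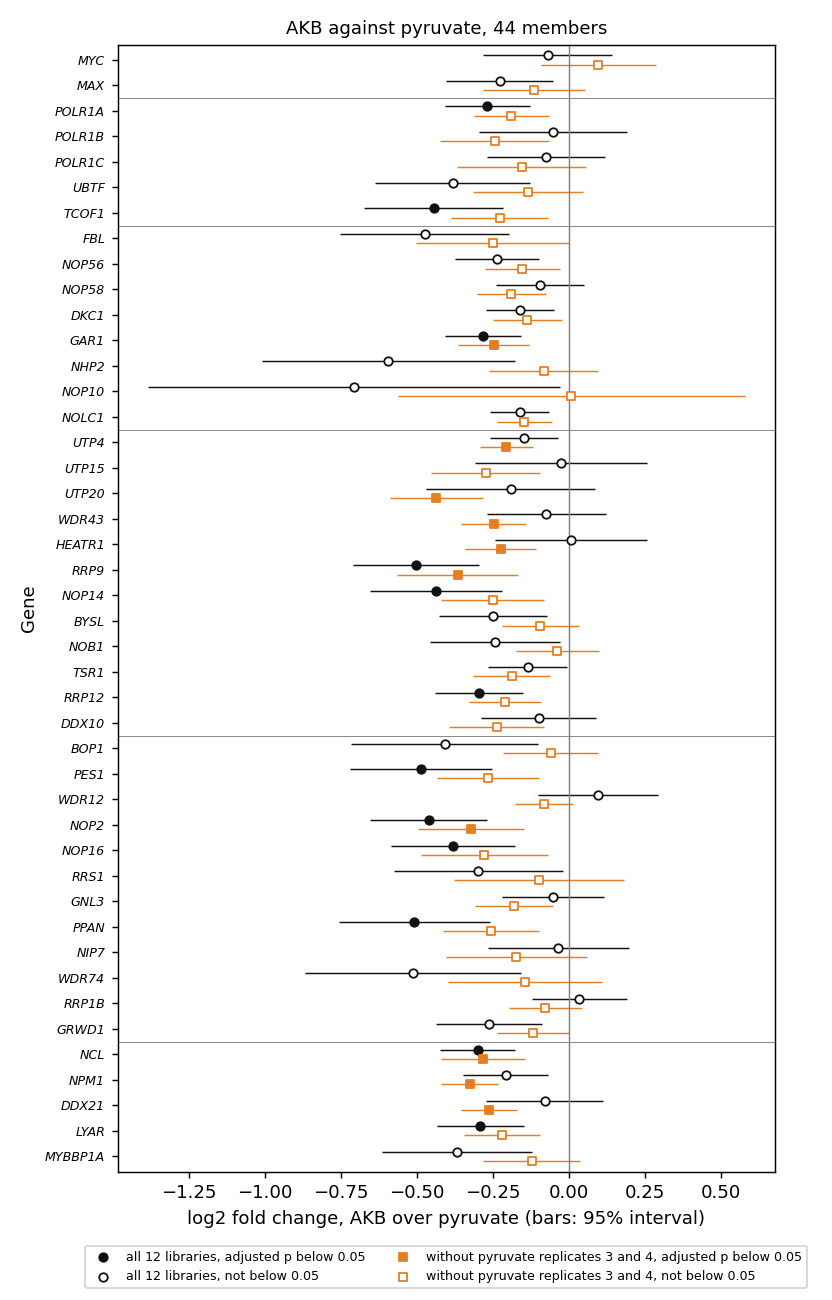
Log2 fold change of AKB over pyruvate for each member with its 95% interval, over all 12 libraries (circles) and without pyruvate replicates 3 and 4 (squares); filled symbols have an adjusted p below 0.05. Estimates lie below 0 for 41 of the 44 members over all libraries, and GAR1, RRP9, NOP2 and NCL are filled in both sets.

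The members differ in GC content, from 38.7% (UTP15) to 65.2% (BOP1) with a median of 51.2%, and in the pyruvate libraries their values followed it. In 24 members pyruvate replicates 3 and 4 both lay above replicates 1 and 2, and these had a median GC of 56.2%. In 15 members both lay below, with a median GC of 42.3%, and the remaining 5, POLR1C, DKC1, GAR1, NOP16 and NCL, showed neither. Across the 44 members, which share their libraries, GC content and the log2 fold change of pyruvate against untreated cells had a Spearman correlation of 0.666, and of −0.00521 without pyruvate replicates 3 and 4. Members rich in GC were thus the higher ones in pyruvate over all libraries. For AKB against pyruvate the correlation was −0.727, and 0.215 without those libraries, while for AKB against untreated cells it was 0.109. The 24 members with at least 50% GC had a median log2 fold change of 0.23 for pyruvate against untreated cells and the 20 others −0.08; without pyruvate replicates 3 and 4 the medians were 0.04 and 0.05. For AKB against untreated cells the same 2 classes stood at −0.12 and −0.17. The 2 classes lay on the same side of 0 with AKB. In 30 members every AKB library lay below both pyruvate replicates 1 and 2. The median coefficient of variation of the members was 5.72% in AKB, 13.1% in pyruvate and 5.03% in untreated libraries, and NOP10 was the most variable in each, at 28.1%, 46.2% and 25.3%.

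**Figure D5:**
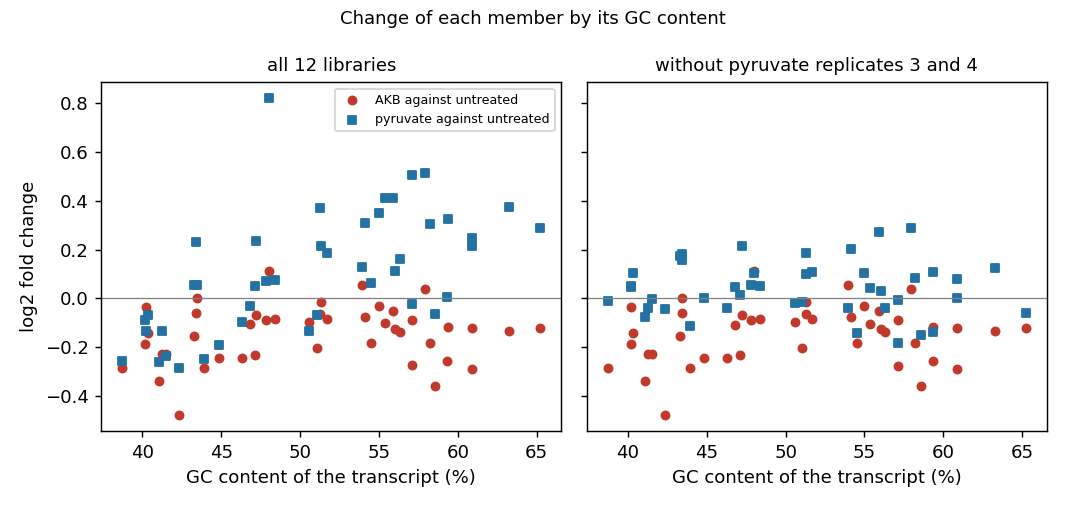
Log2 fold change of each of the 44 members against the GC content of its transcript, for AKB against untreated cells (circles) and pyruvate against untreated cells (squares). The pyruvate points climb with GC content over all libraries (Spearman 0.666) and no longer do so without pyruvate replicates 3 and 4 (−0.00521).

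Per length of transcript, the most abundant member was NPM1 with means of 1050 CPM per kilobase in AKB, 1212 in pyruvate and 1168 in untreated libraries. The least abundant was DDX10, with 8.75, 9.38 and 9.95 CPM per kilobase in the same order. MYC stood 5th in AKB, 7th in pyruvate and 7th in untreated cells, at 105, 109.98 and 101 CPM per kilobase. MAX stood 40th, 38th and 41st. Each of NPM1, NCL, FBL and DDX21 ranked among the first 4 in all 3 groups. These ranks divide by the longest protein-coding transcript of each gene in GENCODE 29, which need not be the form expressed. By CPM alone NOP10 had the lowest untreated mean, at 29.4 CPM against 66.7 CPM for DDX10.

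Other genes of the same pathways, drawn from lists that do not overlap the 44, had estimates mostly below 0 with AKB against untreated cells and gave no call. Among 39 other tested genes of small subunit assembly 37 had estimates below 0 with AKB (median log2 −0.11) and none was called; among 39 other genes of large subunit assembly 37 were below 0 (median −0.14) and none was called. Of 11 other RNA polymerase I genes 8 were below 0 (median −0.11), again with no call. For AKB against pyruvate 1.19% of all genes were lower and 1.94% higher. There 4 of the other small subunit genes were lower, UTP14A, NGDN, AATF and NOL6, and 3 of the large subunit genes, EBNA1BP2, FTSJ3 and DDX31, and none was higher. UTP14A, a processome protein, was the most different of these at log2 −0.49 (adjusted p = 0.0109), with 44.9, 48.8, 50.2 and 51.0 CPM in AKB against 61.9, 71.9, 70.6 and 69.6 CPM in pyruvate libraries. With the GC offset these counts were 13 and 14 lower, with 1 large subunit gene, NMD3, higher, where 6.12% of all genes were lower and 8.29% higher. Without pyruvate replicates 3 and 4 they were 7 and 8 lower with 0 higher, where 1.84% of all genes were lower and 2.52% higher. Pyruvate against untreated cells gave no call in these 3 lists over all 12 libraries or without pyruvate replicates 3 and 4. The GC offset there called 2 lower and 6 higher among the small subunit genes, 1 lower and 4 higher among the large subunit genes, and POLR1F lower among the polymerase I genes. Over all genes it called 4.59% lower and 4.9% higher. For AKB against untreated cells the GC offset called 8 small subunit genes and 7 large subunit genes lower, where 3.57% of all genes were lower. Leaving out pyruvate replicates 3 and 4 instead gave 5 and 14 lower, where 4.31% of all genes were lower. Both fits called 0 of these genes higher.

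Within the wider MYC network, 9 genes were tested, and MXI1, which competes with MYC for MAX, was lower with pyruvate than in untreated cells (41.5, 39.3, 34.3 and 31.0 against 47.3, 47.8, 45.6 and 46.9 CPM, log2 −0.36, adjusted p = 0.049) and higher in AKB than in pyruvate (log2 0.36, adjusted p = 0.0454). All 4 pyruvate values of MXI1 lie below all 4 untreated values, and no other network gene was called over all 12 libraries. Both calls of MXI1 held with the GC offset and neither held without pyruvate replicates 3 and 4 (adjusted p = 0.0954 against untreated cells and 0.0501 for AKB against pyruvate). MYCL, a relative of MYC, was called higher in AKB than in untreated cells and than in pyruvate under each of these alternatives, with log2 fold changes of 0.49 and 0.55 with the offset and 0.52 and 0.68 without those libraries. Of 20 MYC targets outside ribosome biogenesis, ODC1, the first enzyme of polyamine synthesis, fell with AKB against untreated cells. Its AKB libraries had 557, 513, 541 and 531 CPM, against 682, 693, 633 and 628 CPM with pyruvate and 675, 656, 643 and 651 CPM in untreated cells. All 4 AKB values lie below all of the others. The log2 fold change of ODC1 was −0.29 against untreated cells (SE 0.05, adjusted p = 0.0113) and −0.30 against pyruvate (SE 0.05, adjusted p = 0.0109). HSPE1, a mitochondrial chaperonin, rose with pyruvate against untreated cells (log2 0.51, adjusted p = 0.0206) and was lower in AKB than in pyruvate (log2 −0.52, adjusted p = 0.014), as were EIF5A, NME1, EIF4A1 and PHB1. Without pyruvate replicates 3 and 4 the rise of HSPE1 was not called (log2 0.34, adjusted p = 0.0515) and SHMT2 was called lower with pyruvate. In that fit the targets lower in AKB than in pyruvate were ODC1, EIF2S1, HSPE1, EIF4A1 and HSPD1. Over all genes 1.84% were lower in AKB than in pyruvate in that fit, and 1.19% on all 12 libraries. With the GC offset pyruvate gave 3 targets higher (HSPE1, C1QBP and PRMT5) and 3 lower (SHMT2, IARS1 and CDK4) than untreated cells, where 4.9% of all genes were higher and 4.59% lower. The same offset gave 9 lower and 1 higher (TFRC) in AKB than in pyruvate, where 6.12% of all genes were lower and 8.29% higher. Against untreated cells 7 targets were lower in AKB with the offset and 8 without pyruvate replicates 3 and 4, ODC1 among them in both. Over all genes 3.57% and 4.31% were lower in these fits. Over the 20 targets the median log2 fold change with AKB against untreated cells was −0.13, with 17 below 0.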

How the data were processed

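Poly(A)-selected RNA from the 12 K562 libraries was sequenced and processed by the submitters. The deposited table holds estimated counts per gene, made by the authors with Salmon 1.2.1 per the submitters' processing notes, which also name R 3.6.3 and DESeq2 1.26.0. Build, annotation and strand setting were not given in the sources used here. Per the file headers, the comparison tables that the authors deposited hold for each gene a mean normalised signal, a log2 fold change and its error, a test score and a p-value before and after adjustment.

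Counts were rounded, which changed no value. Genes were kept by edgeR's filterByExpr (minimum count 10), scaled by TMM and tested in 1 quasi-likelihood fit over all 12 libraries (edgeR 4.0.16, R 4.3.3), with Benjamini-Hochberg adjustment over all 13598 genes and 0.05 as the threshold. CPM use the TMM-scaled library sizes. The GC offset removes from each library a spline with 5 degrees of freedom of log2 CPM (prior count 2) on transcript GC, taken from GENCODE 29 on GRCh38 for 16904 of the 17786 identifiers. Symbols matched 16933 identifiers. Group, replicate number, dose and time came from the labels. Intervals are 95% intervals of the model. Promoter windows came from RefSeq; MYC, TCOF1, NOP58, NOLC1, RRP12, BOP1, RRS1 and RRP1B had no window. All 44 members were named or counted, and library values were given for MYC, MAX, each called member and, per comparison, the 3 members with the smallest unadjusted p in each direction; values of UBTF, NHP2, NPM1 and ranges of others were added after they were seen. The alternatives were DESeq2 1.42.0, limma-voom 3.58.1, other scalings, no filter, a replicate block, the 8 libraries of a comparison alone, and leaving out libraries. The members and lists were chosen with earlier results of these data known.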

Additional observations from a re-analysis of the deposited data

Results flagged for a closer look

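In the untreated group NOP10 stood at 25.6, 26.6, 24.9 and 40.6 CPM, and replicate 4, at 40.6 CPM, lay far from the other 3: its gap to the nearest was 0.893 of the whole range, above Dixon's 95% critical value for 4 samples. Among the 72 groups of 4 values examined this was the 1 that passed, and by chance about 5% of groups would. The same message varied widely in the AKB and pyruvate groups, and no comparison of NOP10 passed the test.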

How the results depend on the processing

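The median log2 fold change of the members kept its direction under all alternatives, while counts of called members varied. Leaving out 1 library gave 0 to 4 members lower for AKB against untreated cells, 0 to 5 lower and 0 to 15 higher for pyruvate against untreated cells, and 0 to 23 lower for AKB against pyruvate. AKB against untreated cells gave 7 lower by DESeq2, 18 with the GC offset, 16 without pyruvate replicates 3 and 4, 21 with both (a combination chosen after seeing the data), and 15 with only its 8 libraries. Pyruvate against untreated cells gave 12 higher by DESeq2, 2 with DESeq2's size factors, 0 without a filter, 0 with only its 8 libraries, 0 without pyruvate replicates 3 and 4 with or without the offset, and 7 higher and 3 lower with the offset. AKB against pyruvate gave 26 lower by DESeq2, 26 with the offset and 0 with only its 8 libraries. The counts over all genes shifted too. For AKB against untreated cells 195 genes were lower by DESeq2 and 630 with only the 8 libraries. With the offset and without pyruvate replicates 3 and 4, 723 of 13941 genes were lower. For pyruvate against untreated cells 1119 genes were higher by DESeq2 and 2 with only the 8 libraries. DESeq2's size factors gave 167 higher there, and no filter gave 73 of 17786. The offset without pyruvate replicates 3 and 4 gave 63 of 13941 higher. For AKB against pyruvate 893 genes were lower by DESeq2 and 0 with only the 8 libraries. The cause of these shifts was not tested.

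Whether same-numbered libraries pair could not be settled, since the labels do not say that the numbers mark a shared day. Of 12 same-number pairs 6 had a correlation over 0.1 (−0.104 to 0.314 over 9216 genes). Only 1 library correlated best with its own number in both other groups. A replicate block gave 0 lower for AKB against untreated cells, 4 higher for pyruvate against untreated cells and 10 lower for AKB against pyruvate. Over all 13598 genes the block gave 47 lower, 306 higher and 142 lower in these comparisons. The block with the GC offset gave 19 members lower, 8 higher and 3 lower, and 26 lower in the same order. Over all genes it gave 398 lower, 753 higher and 656 lower, and 913 lower.

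Some members near 0 changed sign. For AKB against untreated cells FBL was at −0.0219 with the offset, −0.0246 with the block and offset, −0.0239 with the offset and without pyruvate replicates 3 and 4, and from −0.0373 to 0.123 leaving out 1 library. MAX was at 0.00132 scaled by library size alone and from −0.0374 to 0.0367 leaving out 1 library, and NOP10 from −0.0931 to 0.305. For pyruvate against untreated cells MYC was at −0.0394 without pyruvate replicates 3 and 4 and −0.0526 with the offset as well. For AKB against pyruvate MYC was at 0.0178 with the offset, 0.0168 with the block and offset, 0.0963 without pyruvate replicates 3 and 4 and 0.0857 with the offset as well. HEATR1 was at −0.00858 with DESeq2's size factors, −0.00859 by DESeq2, −0.0118 with only the 8 libraries, −0.00286 without a filter, −0.0882 with the offset, −0.0865 with the block and offset, −0.224 without pyruvate replicates 3 and 4, −0.160 with the offset as well, and from −0.105 to 0.104 leaving out 1 library. RRP1B was at −0.0779 without pyruvate replicates 3 and 4, −0.0516 with the offset as well, and from −0.0308 to 0.0998 leaving out 1 library. WDR12 was at −0.0285 with the offset, −0.0288 with the block and offset, −0.0825 without pyruvate replicates 3 and 4 and −0.0162 with the offset as well.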
